A study of Rattus norvegicus with 8 samples.

Results

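The genes described here run the calcium cycle of the muscle fibre, from release through uptake to buffering. They are Cacna1s, Ryr1, Casq1, Casq2, Atp2a1, Atp2a2, Sln, Pln and Pvalb. A probe set, the group of array probes that measures 1 transcript, was taken where the platform annotation gave it a single symbol and that symbol was one of these 9. This gave 16 of the 31042 probe sets tested: 5 for Atp2a2, 3 for Pln, 2 for Casq2 and 1 for each other gene. No probe set with several symbols held one of them. Where a gene had more than 1, the one with the highest mean level stands for it unless another is named.

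RNA came from the epitrochlearis, a small muscle of the rat forelimb made mainly of fast fibres, with 1 array per rat. Rats of one group received by gavage carbohydrate with whey protein hydrolysate (WPH, n = 4), a product in which enzymes have cut the whey protein of milk into peptides. Rats of the other group were given carbohydrate together with an amino acid mixture (AAM, n = 4). All 8 were male Sprague-Dawley rats aged 6 weeks that had practised swimming for 3 days, had been fed 5 g of chow on the day before, and swam for 2 h before a meal of 44 kJ. There was no unexercised and no unfed rat, so only the contrast between the meals can be read. The labels do not say which 4 rats shared a barrel, and the sources used here do not give the time from meal to sampling.

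In a muscle fibre the voltage sensor of the surface membrane opens the release channel of the sarcoplasmic reticulum, calcium that was held there by calsequestrin floods the sarcomeres, and pumps then carry it back. Fast and slow fibres use different isoforms of the pump and differ in their mix of calsequestrins. Fast fibres of rodents also hold much parvalbumin, a soluble buffer that speeds relaxation. Small membrane peptides slow the pumps by binding to them. Because these isoforms follow fibre type, their levels in whole muscle depend on which fibres were sampled as well as on expression within fibres, and in bulk samples fewer fibres of a type and less RNA per fibre cannot be told apart.

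The deposited levels are on a log2-like scale between 5.28 and 14.2 with a median of 6.66, and their differences between arrays are minute. The SD over the 8 arrays had a median of 3.69e-06 over all probe sets and 2.85e-05 over the 16 probe sets of these genes. A deposited difference is therefore not a fold change. Values are given as z-scores, which are the level on an array minus the mean over the 8 arrays, divided by the SD over the 8 arrays. Meal effects are given as the standardized difference, WPH minus AAM over the pooled SD within groups, with its 95% interval. For 8 skeletal muscle markers the mean levels lay between 12.8 and 14.2, near the top of the arrays' range. For 6 cardiac markers they lay between 6.13 and 6.80, about the array median, but levels of different probe sets need not be comparable. The number of arrays limits the precision of every value here.

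No gene of the calcium cycle passed the test between the meals. By limma with Benjamini-Hochberg adjustment, 0 of the 16 probe sets had an adjusted p below 0.05, as did 0% of all 31042, and at an unadjusted p below 0.05 it was 0 of 16 against 3.58% of all. In none of the 16 did the WPH arrays lie apart from the AAM arrays, against 2.23% of all probe sets. Of the 16, 11 had a higher mean after WPH and 5 a lower one, with a median standardized difference of 0.22, where 47.3% of all probe sets were higher and the median over all was -0.04. That split depended on the scaling and on single arrays. It was 5 higher and 11 lower with each array centred on its median, where 11.2% of all genes were higher, and 4 higher and 8 lower with quantile normalization, after which 4 probe sets no longer varied. It was 7 higher and 9 lower without AAM replicate 2, and the same without AAM replicate 3. The array medians ranged over 6.67e-05, more than the whole range of 7 of the 16. Centring moved the median standardized difference over all 14217 genes from -0.06 to -0.51. Directions and counts with median centring, here and below, therefore carry the medians subtracted from every gene. They are not a reading of the calcium genes alone. On the deposited values the 5 with a lower mean were 4 of the 5 probe sets of Atp2a2 and that of Sln. The smallest adjusted p among the 16 was 1.0 after rounding.

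**Figure D1:**
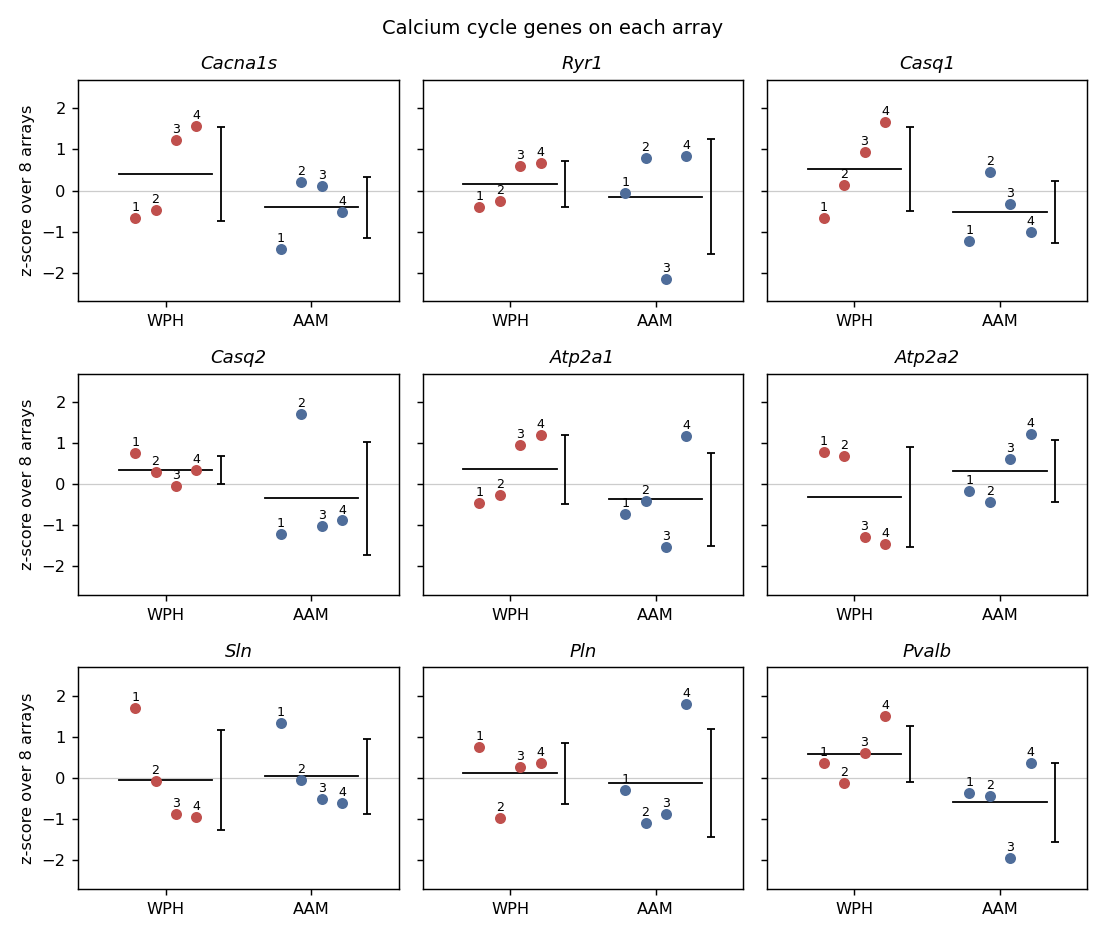
Each panel shows 1 gene of the calcium cycle, with the z-score over the 8 arrays on the vertical axis and the 4 WPH arrays (red) left of the 4 AAM arrays (blue). Digits give the replicate, horizontal lines the group mean and bars the SD (n = 4 each). The groups overlap in every panel, and in both meals the highest Sln value is that of replicate 1.

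The release apparatus was represented by Cacna1s and Ryr1. Cacna1s encodes the voltage-sensing subunit of the L-type calcium channel, which triggers release. Its probe set, 1371000_at, had z-scores of -0.67, -0.48, 1.23 and 1.56 on the WPH arrays, against -1.43, 0.21, 0.10 and -0.52 on the AAM arrays. WPH replicates 3 and 4 were above every AAM array, and WPH replicates 1 and 2 lay among them. The standardized difference was 0.85 (95% interval -0.65 to 2.28, n = 4 per group; exact permutation p = 0.257, two-sided), and it was 1.31 without WPH replicate 1 and 0.50 without WPH replicate 4. Ryr1 encodes the release channel itself. Its probe set, 1390355_at, had z-scores of -0.41, -0.26, 0.60 and 0.66 on the WPH arrays, against -0.05, 0.79, -2.16 and 0.83 on the AAM arrays. A single array, AAM replicate 3, was far below the rest, and without it the standardized difference of Ryr1 turned to -0.69, where it was 0.28 (-1.13 to 1.66) with all arrays. With median centring of the arrays it was -0.47 for Ryr1 and 0.56 for Cacna1s.

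The calsequestrins hold calcium inside the reticulum, and Casq2 is the one found in slow fibres and heart but little in fast fibres. Casq1, measured by 1388604_at, had z-scores of -0.67, 0.15, 0.94 and 1.68 on the WPH arrays, against -1.22, 0.45, -0.32 and -1.01 on the AAM arrays. As for Cacna1s, WPH replicates 3 and 4 were the highest of the 8. The standardized difference was 1.17 (95% interval -0.40 to 2.66; exact permutation p = 0.143, n = 4 per group), and it became 1.90 without WPH replicate 1, with an unadjusted limma p of 0.0426 and an adjusted p of 1.0. With median centring it was 0.0058, and the array medians ranged over 6.67e-05, against 3.29e-05 for Casq1. Casq2, measured by 1368988_at, had z-scores of 0.78, 0.30, -0.05 and 0.34 on the WPH arrays, against -1.20, 1.72, -1.01 and -0.88 on the AAM arrays. All 4 WPH arrays lay above 3 of the AAM arrays, but AAM replicate 2 was the highest of the 8. The standardized difference was 0.68 (-0.78 to 2.09) with that array and 4.88 without it. That value had an unadjusted limma p of 7.28e-04 and an adjusted p of 1.0, and with quantile normalization of all arrays the difference was -0.14. The second probe set of Casq2, 1387401_at, had 0.07 with all arrays and 0.51 without AAM replicate 2, so it did not show the larger difference.

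Uptake depends on the calcium pumps of the reticulum, Atp2a1 in fast fibres and Atp2a2 in slow fibres and heart. Atp2a1, measured by 1368108_at, had z-scores of -0.46, -0.25, 0.96 and 1.2 on the WPH arrays, against -0.71, -0.40, -1.52 and 1.18 on the AAM arrays. AAM replicates 1 and 3 lay below every WPH array, and AAM replicate 4 was nearly as high as the highest. The standardized difference was 0.73 (95% interval -0.74 to 2.15; exact permutation p = 0.314, n = 4 per group). It was 1.67 without AAM replicate 4, 0.38 without AAM replicate 3 and -0.50 with median centring. The SD of Atp2a1 over the 8 arrays was 7.35e-07, below that of most probe sets, only 11.6% of which varied less. Atp2a2, measured by 1369065_a_at, had z-scores of 0.78, 0.70, -1.29 and -1.45 on the WPH arrays, against -0.17, -0.43, 0.62 and 1.24 on the AAM arrays. WPH replicates 3 and 4 were the lowest of the 8, while WPH replicates 1 and 2 lay in the upper part of the AAM range. The standardized difference was -0.62 (-2.03 to 0.83; exact permutation p = 0.429, n = 4 per group). It was -1.04 without WPH replicate 1 and -0.27 without WPH replicate 4. The other 4 probe sets of Atp2a2 had values from -1.15 to 0.04. The SD of Atp2a2 was 0.00208, larger than that of 99.1% of all probe sets, so the slow pump gene varied far more between rats on the deposited scale than the fast one. On that scale SDs of different probe sets need not measure the same amount of RNA.

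Sln and Pln encode sarcolipin and phospholamban, the small peptides that inhibit the pumps. Sln, measured by 1374391_at, had levels of 7.19, 7.18, 7.17 and 7.17 on the WPH arrays, against 7.19, 7.18, 7.18 and 7.18 on the AAM arrays. Its z-scores were 1.70, -0.07, -0.87 and -0.94 on the WPH arrays, against 1.35, -0.05, -0.51 and -0.62 on the AAM arrays. In each meal 1 rat, replicate 1, stood high, and the groups covered nearly the same range. Its SD of 0.00740 was larger than that of 99.6% of all probe sets, yet its standardized difference was only -0.08 (95% interval -1.47 to 1.31; exact permutation p = 0.857, n = 4 per group). Pln, measured by 1388876_at, had z-scores of 0.76, -0.96, 0.28 and 0.38 on the WPH arrays, against -0.29, -1.10, -0.86 and 1.80 on the AAM arrays. The spread within each meal exceeded the difference between their means, which was 0.21 pooled SDs (-1.19 to 1.59), and the other 2 probe sets of Pln had 0.22 and 0.33. All 3 probe sets of Pln had mean levels between 6.10 and 6.73, close to the array median.

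Pvalb, which encodes the soluble calcium buffer parvalbumin of fast fibres, had the largest difference between the meals of the 16 probe sets, though it did not pass the test. Its probe set, 1370214_at, had z-scores of 0.37, -0.12, 0.61 and 1.51 on the WPH arrays, against -0.36, -0.43, -1.94 and 0.37 on the AAM arrays. All 4 WPH arrays lay above 3 of the AAM arrays, and AAM replicate 4 fell among them. The standardized difference of 1.41 had an interval from -0.23 to 2.95 (unadjusted limma p = 0.0790; exact permutation p = 0.0857, n = 4 per group), and it ranged from 1.11 to 1.94 when 1 array was left out, with every unadjusted limma p above 0.05 except without AAM replicate 4. The highest array, WPH replicate 4, also had the highest score of 11 other fast fibre markers, 1.21, and the lowest array, AAM replicate 3, had the lowest such score, -0.40, and the lowest score of the skeletal muscle markers, -0.97. But WPH replicate 1 and AAM replicate 4, with Pvalb z-scores of 0.37 each, had low fast fibre scores too, -0.39 and -0.28. Over the 8 arrays Pvalb had a Pearson's r of 0.70 with the fast fibre score (exact permutation p = 0.0853). It did not pass adjustment over the 18 relations described below (adjusted p = 0.219). Without WPH replicates 3 and 4 it was 0.19, and r with the slow fibre score was -0.16. How large a part fibre type and muscle content had in the Pvalb values was not tested.

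**Figure D2:**
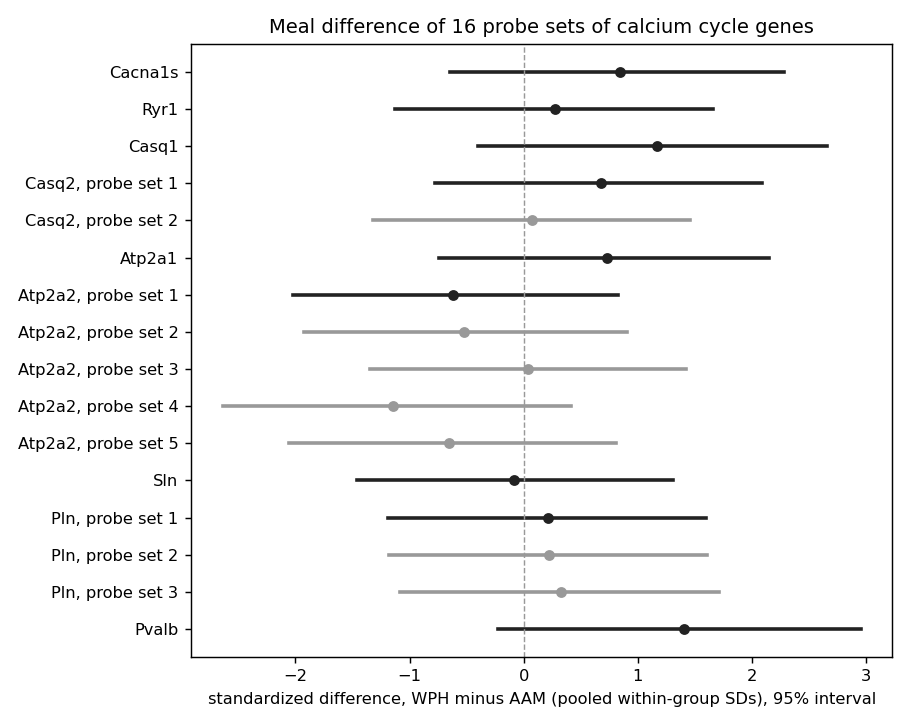
Points show the standardized difference, WPH minus AAM in pooled within-group SDs, of each of the 16 probe sets, and lines its 95% interval (n = 4 per group). Black marks the probe set of highest mean level of each gene, grey the others, and every interval includes 0.

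The genes varied together in part from rat to rat. Over the 8 arrays 36 pairs of genes were compared by Pearson's r and Spearman's rho, with exact permutation tests over pairings and Benjamini-Hochberg adjustment over the 36. Of these pairs 22 had a positive r, the median was 0.21, and 1 pair passed. This was Casq1 with Cacna1s, with r = 0.93 (exact permutation p = 0.00109, adjusted p = 0.0393) and rho = 0.95 (exact permutation p = 0.00114, adjusted p = 0.0411). Without the 2 arrays farthest from the median in Casq1 r was 0.82, and when 1 array was left out it lay between 0.88 and 0.96. With median centring, however, it was 0.70 and did not pass (exact permutation, adjusted p = 0.230). Taken as deviations from the meal means, which remove any difference between the meals, the smallest adjusted p over the 36 pairs was 0.0571, and the pair did not pass without WPH replicate 1, 3 or 4 or AAM replicate 2 or 3.

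No other pair passed on the deposited values. Atp2a1 and Pvalb had r = 0.87 (exact permutation p = 0.00305, adjusted p = 0.0549; rho = 0.86, p = 0.0107), which was 0.86 without the 2 arrays farthest from the median in Atp2a1. Atp2a1 and Ryr1 had r = 0.80 (exact permutation p = 0.00992, adjusted p = 0.119; rho = 0.71, p = 0.0576), and 0.77 without those arrays. With median centring Atp2a1 and Pvalb had 0.12 and Pvalb and Ryr1 0.16, while Atp2a1 with Ryr1 (r above 0.99), Atp2a1 with Casq1 (0.91) and Casq1 with Ryr1 (0.91) passed. The ranges of Atp2a1, Casq1 and Ryr1 over the arrays were each smaller than that of the array medians subtracted from them. On the deposited values Pvalb and Ryr1 had r = 0.77 (exact permutation p = 0.0387, adjusted p = 0.217; rho = 0.43, p = 0.299), but without the 2 arrays farthest from the median in Pvalb r was 0.11, so that relation rests on those arrays, AAM replicate 3 and WPH replicate 4. On the slow side Atp2a2 ran against Casq1, with r = -0.79 (exact permutation p = 0.0231, adjusted p = 0.208; rho = -0.74, p = 0.0458), and against Cacna1s, with r = -0.73 (exact permutation p = 0.0423, adjusted p = 0.217; rho = -0.74, p = 0.0458). Neither passed, and without the 2 arrays farthest from the median in Atp2a2, WPH replicates 3 and 4, they were -0.32 and -0.01. Sln and Cacna1s had r = -0.76 (exact permutation p = 0.0325, adjusted p = 0.217; rho = -0.76, p = 0.0368), and -0.67 without the 2 arrays farthest from the median in Cacna1s.

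**Figure D3:**
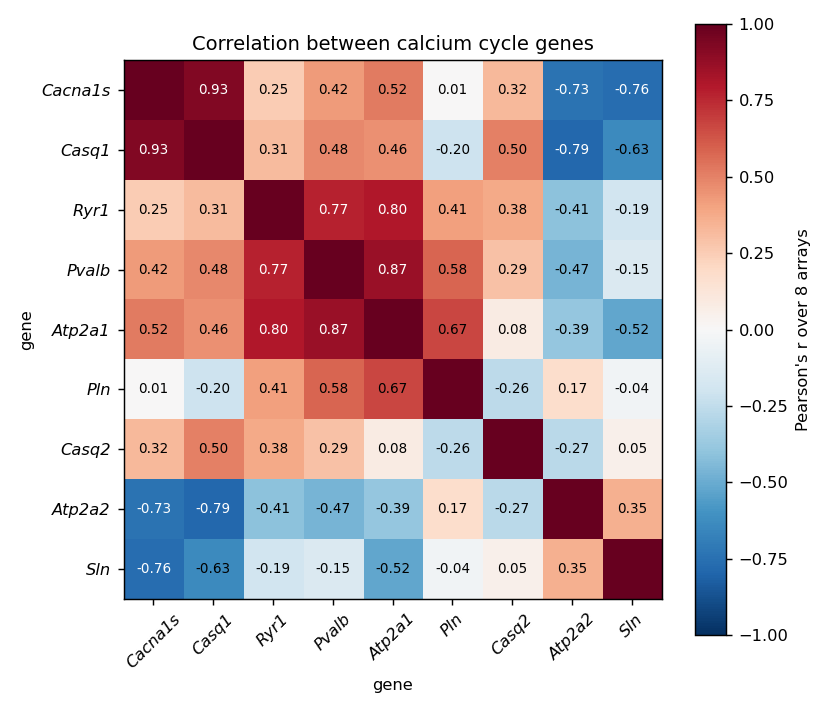
The colour and the printed value give Pearson's r over the 8 arrays between each pair of the 9 genes. Cacna1s with Casq1, at 0.93, is the pair that passed after adjustment on the deposited values, and Atp2a2 has negative values with Casq1 and with the fast pump gene Atp2a1.

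The upstream sequences of Casq1 and Cacna1s, the pair that passed on the deposited values, and of Atp2a2 for contrast, are shown so that their regulatory letters can be compared. Of the 9 genes 8 had an entry in the RefSeq promoter table of the GRCr8 assembly, and Sln had none. The 250 bases before the annotated start are given 5′ to 3′ on the gene's strand, Casq1 at chr13:87212711-87212960 (minus strand), Cacna1s at chr13:50045418-50045667 (plus strand) and Atp2a2 at chr12:39733269-39733518 (plus strand). Capitals mark matches on either strand to the E-box, CANNTG, which myogenic factors can bind, or to the TATA box, TATAAA.
Casq1: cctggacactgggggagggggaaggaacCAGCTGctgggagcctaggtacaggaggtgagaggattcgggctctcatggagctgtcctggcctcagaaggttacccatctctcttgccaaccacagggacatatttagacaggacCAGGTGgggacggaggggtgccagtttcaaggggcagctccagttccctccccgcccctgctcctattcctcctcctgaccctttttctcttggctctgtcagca
Cacna1s: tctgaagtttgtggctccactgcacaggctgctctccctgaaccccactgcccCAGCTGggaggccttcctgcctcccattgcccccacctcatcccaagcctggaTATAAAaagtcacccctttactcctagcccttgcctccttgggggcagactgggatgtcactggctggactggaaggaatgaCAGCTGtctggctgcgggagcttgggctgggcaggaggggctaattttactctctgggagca
Atp2a2: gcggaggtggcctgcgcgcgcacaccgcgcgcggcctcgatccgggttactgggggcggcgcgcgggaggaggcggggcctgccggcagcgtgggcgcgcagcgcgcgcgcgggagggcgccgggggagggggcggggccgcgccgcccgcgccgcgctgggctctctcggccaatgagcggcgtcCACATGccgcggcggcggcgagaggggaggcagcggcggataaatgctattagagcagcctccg
Casq1 and Cacna1s each held 2 E-boxes, as did Pvalb and Casq2. Atp2a2 held 1, as did Atp2a1, Ryr1 and Pln. Of the 33469 windows of this length in the table, 65.5% held at least 1, and the share with 2 was not counted. The windows of Pvalb and Pln lay inside the span of the gene, before an internal start, while those of the other genes lay just outside it. The TATA box of Cacna1s was the only one among the 8 genes, and 12.9% of all windows held one. A match to the MEF2 site, a motif of muscle genes, was present in Casq2 alone of the 8 genes and in 2.96% of all windows, and the CArG box, the site of serum response factor, in 0 of the 8 and in 1.5% of all. These matches describe letters in the window and not sites in use.

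Atp2a2 followed the slow fibre genes closely. Among 14208 other genes, each represented by 1 probe set, the 3 whose values over the 8 arrays were most like those of Atp2a2 were Tnnc1 (r = 0.99, rho = 1), Myl3 (r = 0.99, rho = 0.98) and Tnni1 (r = 0.97, rho = 0.98). Tnnc1 and Tnni1 encode the troponin C and troponin I of slow fibres, and Myl3 a myosin light chain of slow fibres and ventricle. Tnnt1, Tpm3 and Myh7, the slow isoforms of troponin T, tropomyosin and myosin heavy chain, held ranks 5, 6 and 7 with r from 0.96 to 0.97. So 6 of 10 slow fibre markers were among the 7 genes most like Atp2a2, and 15 of the 14208 genes, or 0.106%, had r above 0.9. For Tnnc1 r lay between 0.98 and 0.99 whichever array was left out, and within meals it was 0.99. These correlations are given as descriptions, with no test, since the genes were ranked by them and all values of an array share 1 library and 1 normalization.

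Not every slow marker went with it. Myl2 had r = 0.78 and Myoz2 0.43, while Ankrd2 and Csrp3, which encode proteins that respond to mechanical load, had -0.51 and -0.60. Among the 11 fast markers 9 had a negative r with Atp2a2, the lowest that of Mybpc2, a fast isoform of myosin-binding protein C, at -0.82. The highest were those of Myl1 (0.18) and Myh4 (0.05), which were -0.41 and -0.35 with median centring, where Mybpc2 had -0.44. Myl1 and Mybpc2 ranged over 5.00e-08 and 3.09e-06, against 6.67e-05 for the array medians. Their centred values are therefore mostly the subtracted medians, and their centred r does not show how the genes ran with Atp2a2. The 6 slow markers nearest to Atp2a2 still had r from 0.96 to 0.99 with median centring. The order of rats was the same for Atp2a2 and Tnnc1, with WPH replicate 4 lowest, then WPH replicate 3, and AAM replicate 4 highest.

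**Figure D4:**
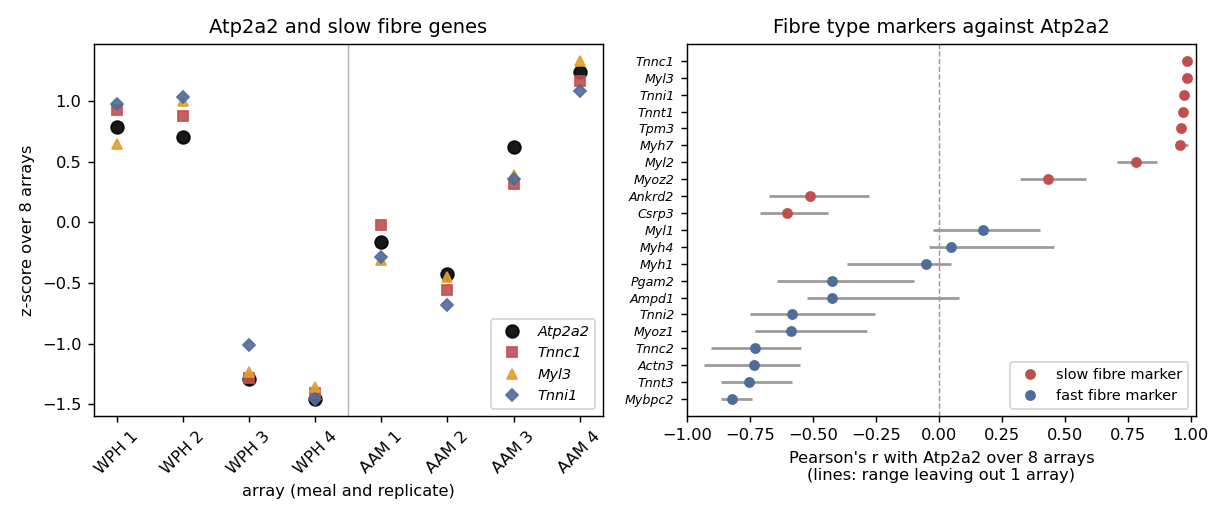
The left panel shows z-scores over the 8 arrays of Atp2a2 and of the 3 genes most like it, the 4 WPH arrays left of the 4 AAM arrays. The right panel shows Pearson's r of each fibre type marker with Atp2a2, with lines for its range when 1 array is left out, and 6 slow markers lie above 0.9.

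As mean z-scores over the marker lists, with the calcium genes left out of both, the slow score was 0.87, 0.90, -1.02 and -0.71 on the WPH arrays, against -0.01, -0.24, -0.23 and 0.43 on the AAM arrays. The fast score was -0.39, -0.16, 0.30 and 1.21 on the WPH arrays, against -0.27, 0.00, -0.40 and -0.28 on the AAM arrays. Across the 9 genes and both scores 18 relations were tested by exact permutation, and 4 passed by Pearson's r. Atp2a2 with the slow score had r = 0.85 (exact permutation p = 0.00975, adjusted p = 0.0439), rho = 0.86 (exact permutation p = 0.0107, adjusted p = 0.165), and r = 0.89 without the 2 arrays farthest from the median score. Atp2a2 with the fast score had r = -0.82 (exact permutation p = 0.00248, adjusted p = 0.0223), rho = -0.79 (exact permutation p = 0.0279, adjusted p = 0.165). Casq1 with the fast score had r = 0.87 (exact permutation p = 0.00159, adjusted p = 0.0223), rho = 0.76 (exact permutation p = 0.0368, adjusted p = 0.165), and Cacna1s had r = 0.82 (exact permutation p = 0.00476, adjusted p = 0.0286), rho = 0.69 (exact permutation p = 0.0694, adjusted p = 0.208).

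The relation of Cacna1s with the fast score rests on WPH replicates 3 and 4, the arrays farthest from the median score, since without them r was 0.30 (exact permutation p = 0.565). Without them Casq1 had 0.65 and Atp2a2 -0.58 (exact permutation p = 0.164 and 0.231, over 6 arrays). With median centring Atp2a2 with the slow score (0.84, adjusted p = 0.0455) and Casq1 with the fast score (0.98, adjusted p = 0.00134) still passed by exact permutation. Atp2a2 and Cacna1s with the fast score did not (-0.57 and 0.61, adjusted p = 0.256 and 0.230), and Atp2a1 and Ryr1 with the fast score did (0.95 each, adjusted p = 0.0135 each). Over the arrays Casq1, Atp2a1 and Ryr1 ranged less than the 6.67e-05 of the array medians subtracted from them. Among the fast markers named below, so did Actn3, Mybpc2 and Myl1, while Ampd1 and Myh1 ranged more. Centring therefore gave Casq1, Atp2a1, Ryr1 and those markers a shared part. Their centred r with the fast score cannot be read as a relation between the genes. With quantile normalization Atp2a2 with the slow score had 0.89 and passed (exact permutation, adjusted p = 0.0476), and with the fast score, of which 1 marker still varied, Atp2a2 had -0.56 and Cacna1s -0.12. By Spearman's rho 0 of the 18 passed after adjustment, with a smallest adjusted p of 0.165. The other slow isoform and the peptide inhibitors did not follow the slow score alike. Sln had r = 0.58 with it (exact permutation p = 0.137, adjusted p = 0.265), Pln 0.10 (p = 0.815) and Casq2 0.04 (p = 0.920). The meals did not differ past the threshold in any marker of either list, with 4 of 10 slow and 9 of 11 fast markers higher after WPH on the deposited values, and 4 of 10 and 2 of 11 with median centring. Of the slow markers with the smallest unadjusted p-values, Csrp3, Ankrd2 and Myoz2 had standardized differences of 1.15, 1.11 and 0.58, and Myh7, Myl3 and Tnnt1 had -0.68, -0.46 and -0.44. Of the fast ones Ampd1, the AMP deaminase of muscle, had 1.91, Mybpc2 1.38 and Actn3 0.68, while Myh1 had -0.42 and Myl1 -0.75.

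The probe sets of one gene differed in how far they shared these patterns. For Atp2a2 the probe sets 1369065_a_at and 1370426_a_at had r = 0.91 with each other (exact permutation p = 0.00414, adjusted p = 0.0290 over 14 pairs of probe sets of the same gene; rho = 0.86, adjusted p = 0.108), and 2 of the 3 for Pln had r = 0.90 (exact permutation p = 0.00268, adjusted p = 0.0290; rho = 0.83, adjusted p = 0.108). The other 12 pairs did not pass, and the median over the 14 pairs was 0.04, against 0.31 over all 9597 pairs of probe sets of the same gene on the array. Of the 5 for Atp2a2, the 3 with the highest mean levels had r of 0.85, 0.62 and 0.53 with the slow score, and the 2 with mean levels of 6.46 and 6.20 had -0.37 and 0.01. These 5 were compared after the relation of the first had been seen, and none of the other 4 passed (exact permutation, smallest adjusted p = 0.275).

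The fast pump gene had other neighbours. The 3 genes most like Atp2a1 were Cmya5 (r = 0.98, rho = 0.93), which encodes a large sarcomere-associated protein, Rtn2 (r = 0.97, rho = 0.81), which encodes a reticulon of the endoplasmic reticulum, and Lats1 (r = 0.96, rho = 0.90), which encodes a kinase of the Hippo pathway. In all 12 of the 14208 genes, or 0.0845%, had r above 0.9 with Atp2a1. The range of Atp2a1 over the arrays was 2.00e-06, against 6.67e-05 for the array medians, so these likenesses hold for the deposited values only.

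Other genes of the calcium cycle came from 3 lists holding 73 measured genes, of which 0 passed the threshold by limma. At an unadjusted p below 0.05 there was 1, or 1.37% against 3.58% of all probe sets, and the groups lay apart in 0. Over the 73, 49 were higher and 24 lower after WPH, with a median standardized difference of 0.32, against 46.1% higher and a median of -0.06 over all 14217 genes. The scores of all 3 lists were higher on WPH replicate 4 than on any other array, at 0.85, 0.45 and 0.61. Without that array 39 were higher and 34 lower, and without AAM replicate 1 the counts were 40 and 33. With median centring 24 were higher and 49 lower, beside 11.2% of all genes higher, and with quantile normalization 35 of the 63 that still varied were higher, 22 lower and 6 equal within 1e-06 pooled SDs.

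Of 25 genes of triad structure and calcium release, 18 were higher and 7 lower after WPH (median 0.51), but 11 and 14 with median centring and, with quantile normalization, 9 and 8 with 2 equal. Asph, whose locus encodes the triad protein junctin, had a standardized difference of 1.95 (95% interval 0.15 to 3.66; unadjusted limma p = 0.0253, adjusted p = 1.0; exact permutation p = 0.0571, n = 4 per group). Its z-scores were -0.11, 0.16, 1.06 and 1.69 on the WPH arrays, against -0.64, 0.11, -1.20 and -1.06 on the AAM arrays. All but 1 of the WPH arrays lay above every AAM array. Srl, which encodes the reticulum protein sarcalumenin, had 1.62, and Sypl2, which encodes the triad protein mitsugumin, had 1.38. At the other end were Cacng6, a calcium channel subunit gene, with -0.89, and the release channel genes Ryr2 and Ryr3 with -0.84 and -0.67. Mean levels of Cacng6, Ryr2 and Ryr3 were 6.65, 6.16 and 6.42, below the array median of 6.66.

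Of 23 genes of calcium uptake, extrusion and entry, 10 were higher and 13 lower after WPH (median -0.10), but 2 and 21 with median centring and, with quantile normalization, 17 and 5 with 1 equal. Stim1, the reticulum sensor that opens store-operated entry, had a standardized difference of 1.59, Cacna1c, an L-type channel subunit gene, 1.35 and the sodium-calcium exchanger gene Slc8a2 1.24. Trpc1, a cation channel gene, had -1.38, Cacna1d -1.30 and Letm1, which encodes a protein of the inner mitochondrial membrane, -0.87. Mean levels of Cacna1c, Slc8a2 and Cacna1d were 6.38, 6.51 and 6.48, below the array median of 6.66. Those of Stim1, Trpc1 and Letm1 were 9.22, 6.81 and 9.33. Of 25 genes of calcium sensing and signalling, 21 were higher and 4 lower after WPH (median 0.42), but 11 and 14 with median centring and, with quantile normalization, 9 and 9 with 3 equal. Camk2a, a calmodulin-dependent kinase gene, had 1.34, and the calpain protease genes Capn3 and Capn1 had 1.25 and 1.2. Nfatc4, which encodes a transcription factor activated by calcineurin, had -1.27, the chaperone gene Canx -0.71 and Rcan2, a calcineurin regulator gene, -0.53.

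**Figure D5:**
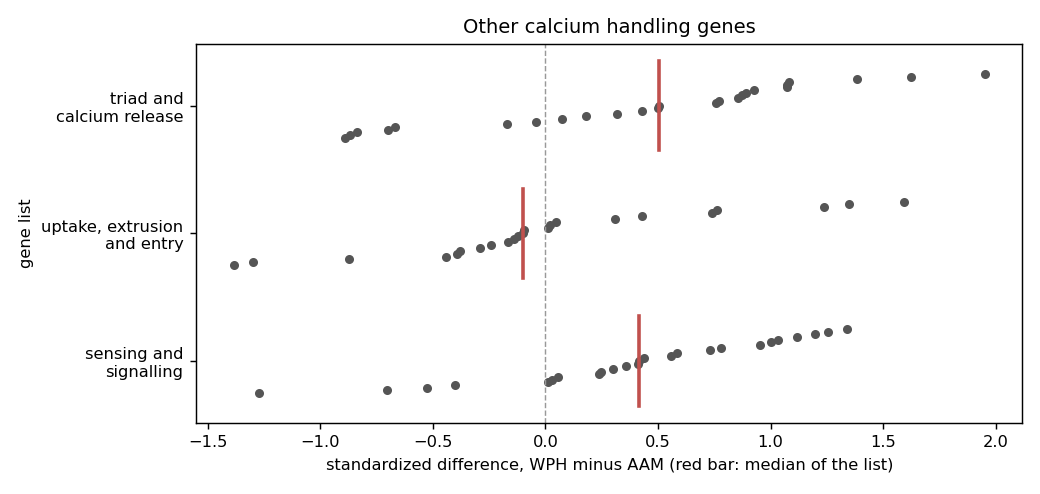
Each point is 1 gene, placed by its standardized difference, WPH minus AAM in pooled within-group SDs (n = 4 per group), in 3 lists of other calcium handling genes, sorted within each list. Red bars mark the list medians of 0.51, -0.10 and 0.42, and 0 of the 73 genes passed the threshold.

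Markers of other cells were read beside these results. On the deposited values the genes higher after WPH were 6 of 8 for skeletal muscle, 2 of 6 for cardiac muscle, 3 of 7 for smooth muscle and pericyte, 5 of 6 for endothelium, 5 of 7 for fibroblast and matrix, and 5 of 6 for macrophage. They were 1 of 6 for adipocyte, 3 of 4 for Schwann cell and nerve, 2 of 3 for erythrocyte, 1 of 6 for skin and epithelium, and 1 of 2 for satellite cell, beside 46.1% of all genes. With median centring, where 11.2% of all genes were higher, they were 0 of 8 for skeletal muscle, 0 of 6 for cardiac muscle, 2 of 7 for smooth muscle and pericyte, 3 of 6 for endothelium, 4 of 7 for fibroblast and matrix, and 2 of 6 for macrophage. They were then 0 of 6 for adipocyte, 0 of 3 for erythrocyte, and as before for Schwann cell and nerve, skin and epithelium, and satellite cell. The skin and epithelium score was the only one of the marker and calcium list scores whose groups lay apart, from -0.45 to -0.12 on the WPH arrays and from 0.04 to 0.61 on the AAM arrays. Among its 6 markers taken singly the groups lay apart in 0. Of all probe sets 2.23% had groups that lay apart, a share that holds for single probe sets and not for scores over several genes. The mean levels of these 6 markers lay between 6.03 and 6.79 with a median of 6.15, against an array median of 6.66. No marker passed the threshold, and the part of other cells in the calcium gene values was not tested. The cardiac score, which bears on Atp2a2, Casq2 and Pln, ran from -0.75 to 0.20 on the WPH arrays and from -0.35 to 0.33 on the AAM arrays.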

How the data were processed

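Total RNA of 8 muscles, 100 ng each per the labels, was labelled with biotin and hybridised to 1 array per rat. The authors' deposited values are log2-like levels per probe set. The submitters' processing notes name R 2.7.2. How background was corrected and how arrays were normalized and summarised is not stated there, so scale and centring are unknown.

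Of 31099 probe sets 57 controls were left out. Of the 31042 tested, 20826 had 1 symbol in the platform annotation, 436 several and 9780 none. Gene IDs matched the GRCr8 gene table for 20758, with 0 symbols changed. WPH and AAM were compared by two-sided limma tests (version 3.58.1, R 4.3.3, functions lmFit and eBayes, with 0.549 prior degrees of freedom) after Benjamini-Hochberg adjustment over all probe sets, at a threshold of 0.05. The intervals use a noncentral t distribution with 6 degrees of freedom. Exact permutation tests of a meal difference use the 35 splits of the arrays into 4 and 4, and their smallest possible p is 0.0286. Correlations were computed in Python 3.11.15 with numpy 2.4.6. The fit and the correlations were tested on simulated data.

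The members and lists were chosen with earlier results of these data known. The genes named are all probe sets of the 9 members, the 3 genes with the smallest unadjusted p in each direction in each calcium and fibre type list, and the 3 genes most like Atp2a1 and Atp2a2. The labels call each rat a biological replicate. Deviations from the group means of samples with the same replicate number had correlations of 0.16, 0.13, 0.06 and -0.07 for replicates 1 to 4. For WPH replicates 1, 2 and 3 this was the highest correlation with any AAM array. The highest of all, 0.28, was between WPH replicate 4 and AAM replicate 3. These values do not settle whether the numbers pair rats. The labels name no pairing, so the main fit was unpaired, and a fit with a replicate block is given below.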

Additional observations from a re-analysis of the deposited data

Results flagged for a closer look

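In 2 of 36 groups of 4 arrays tested with Dixon's ratio, 1 array stood far from the other 3, where 1.8 are expected by chance. For the probe set 1398862_at of Atp2a2 the ratio was 0.841 among the WPH arrays, with replicate 1 high. For 1368988_at of Casq2 it was 0.890 among the AAM arrays, with replicate 2 high.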

How the results depend on the processing

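In all 17 other settings 0 probe sets passed, among all, the 16 of the calcium cycle genes or the other calcium genes. With the replicate block too it was 0 of 31042, the smallest adjusted p being 0.275, and Pvalb had a standardized difference of 1.71. Of the 16 probe sets 6 kept their direction wherever they could be fitted. With median centring the direction turned for Atp2a1 (-0.50), Ryr1 (-0.47), Atp2a2 1398862_at (-0.33), Casq2 1387401_at (-0.25), Pln 1370157_at (-0.46) and Pln 1384689_at (-0.49). The array medians spanned 6.67e-05, more than the whole range of 7 of the 16. With quantile normalization 4 bright members held 1 value on all arrays and could not be fitted, and the direction turned for Atp2a2 1398862_at (-1.10) and 1391771_at (0.24), Casq2 1368988_at (-0.14) and 1387401_at (-0.96), and Pln 1384689_at (-1). At these like sizes the unadjusted limma p was 0.838 for Pln 1384689_at and 0.187 for Casq2 1387401_at. The SD of that Pln probe set within groups was thus very small, and its direction is not read. With array weights the direction turned for Casq2 1387401_at (-0.12) and Ryr1 (-0.0080). The cause was not tested. Leaving out 1 array, the range was -0.34 to 1.06 for Atp2a2 1398862_at, -0.40 to 0.51 for Casq2 1387401_at, -0.69 to 0.59 for Ryr1, -0.87 to 0.36 for Sln, and -0.10 to 1.36, -0.066 to 1.55 and -0.15 to 0.65 for the probe sets 1388876_at, 1370157_at and 1384689_at of Pln. The 1 correlated pair, Casq1 with Cacna1s, did not pass with median centring, where 3 other pairs did. The count was 0 as deviations from the group means, 0 of 10 with quantile normalization, and 0 to 2 leaving out 1 array (0 without WPH replicate 1, 3 or 4, or AAM replicate 2 or 3; 2 without AAM replicate 1 or 4). The 4 relations with marker scores became 4 with median centring, 2 of them the same, 0 by Spearman's rho, 1 of 10 with quantile normalization, and 0 to 4 leaving out 1 array (0 without WPH replicate 3 or 4 or AAM replicate 2, 1 without WPH replicate 1, 2 without WPH replicate 2).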

Other observations

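WPH replicate 4 had the highest score of the 8 arrays not only for fast fibre markers and the 3 calcium lists but also for fibroblast and matrix markers (1.37) and macrophage markers (1.03). WPH replicate 2 had the lowest scores for fibroblast and matrix (-1.11), smooth muscle and pericyte (-0.95) and adipocyte markers (-0.98), and the highest slow fibre score. The part of these in the calcium gene values was not tested.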
